A study of Mus musculus with 2 samples.

Results

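A set of 10 genes that Paneth cells of the adult mouse intestine are known for were followed in newborn intestine: the alpha-defensins Defa24, Defa17, Defa3, Defa5 and Defa22, the lysozymes Lyz1 and Lyz2, the ribonuclease Ang4, the protease Mmp7 and the phospholipase Pla2g2a. They were taken by symbol, through their Ensembl identifiers, from tables of 43346 Ensembl genes, and all 10 were found. The samples were intestines, 1 from each of 2 B6NCrl mouse pups of age 0 days from the same pregnancy, sex not collected, with 1 total RNA library per pup made from 10 ng of RNA longer than 200 nt. No genotype or treatment other than this is given, both libraries form 1 group, and nothing says which stretch of intestine was taken. Levels are in TPM, a measure scaled by transcript length and by the total of the library. Read numbers are expected counts, in which a read shared between copies is divided among them.

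Paneth cells sit at the base of the small intestinal crypts and release granules of antimicrobial peptides and enzymes into the lumen. In the mouse, crypts form and Paneth cells accumulate after birth. Alpha-defensins, called cryptdins in the mouse intestine, are made as inactive precursors that matrix metalloproteinase 7 cuts to the active peptide, and they are encoded by a cluster of closely related copies on chromosome 8. Lyz1 is the lysozyme of Paneth cells and Lyz2 that of macrophages and other myeloid cells.

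Because copies of the cluster are so alike, the sequences decide which values can be read gene by gene. Each of the 5 alpha-defensins followed has a coding sequence of 282 bases, 94 codons with the stop, of which 6 encode cysteine. The coding sequences of Defa17 and Defa3 were identical at all 282 bases. Defa17 and Defa24, the copies with the most reads, differed at 12 bases in 10 codons, of which 8 change the residue. Both are shown 5′ to 3′ from the GENCODE M21 transcripts (GRCm38, plus strand), with the differing bases in capitals, and the Defa17 line is also that of Defa3.

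Defa17: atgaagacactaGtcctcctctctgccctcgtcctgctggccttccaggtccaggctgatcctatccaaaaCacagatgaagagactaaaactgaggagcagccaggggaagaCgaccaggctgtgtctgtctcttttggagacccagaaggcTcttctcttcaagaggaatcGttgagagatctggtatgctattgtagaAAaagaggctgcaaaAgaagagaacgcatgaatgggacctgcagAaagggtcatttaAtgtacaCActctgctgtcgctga
Defa24: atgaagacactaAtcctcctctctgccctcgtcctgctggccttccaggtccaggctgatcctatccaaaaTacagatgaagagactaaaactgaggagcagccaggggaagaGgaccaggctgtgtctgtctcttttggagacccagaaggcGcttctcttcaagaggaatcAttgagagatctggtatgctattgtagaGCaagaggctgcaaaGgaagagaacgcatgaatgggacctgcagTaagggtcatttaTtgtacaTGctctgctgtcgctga

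The copy nearest to Defa24 in coding sequence was Defa30, with 4 differing bases, 2 of them in codons that change the residue, and 98.6% identity. This pair is shown the same way, with only its own differing bases in capitals, because Defa30 is the copy whose reads could most easily be taken for those of Defa24.

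Defa24: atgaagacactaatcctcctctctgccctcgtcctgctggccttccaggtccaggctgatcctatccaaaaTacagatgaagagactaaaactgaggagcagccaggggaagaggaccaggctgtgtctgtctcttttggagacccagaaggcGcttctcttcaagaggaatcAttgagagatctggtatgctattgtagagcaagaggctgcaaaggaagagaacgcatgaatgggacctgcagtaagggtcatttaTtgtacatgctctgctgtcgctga
Defa30: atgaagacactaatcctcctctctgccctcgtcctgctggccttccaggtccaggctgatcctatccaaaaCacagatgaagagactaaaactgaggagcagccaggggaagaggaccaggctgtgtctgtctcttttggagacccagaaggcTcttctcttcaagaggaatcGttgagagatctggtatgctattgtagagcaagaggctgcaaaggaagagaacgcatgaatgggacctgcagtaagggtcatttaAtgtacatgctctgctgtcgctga

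Transcripts of 3 alpha-defensins made up nearly all reads of the family in both newborn intestines. Defa24 was at 602 TPM in pup 1 and 601 TPM in pup 2, from 6931 and 5302 expected counts. It ranked 204th by mean TPM among 21528 protein-coding genes and polymorphic pseudogenes, and its gene lies on chromosome 8 at 21734494 to 21735471 (GRCm38, plus strand). Defa17, at 21655780 to 21656735 on the same strand, was at 242 TPM in pup 1 and 258 TPM in pup 2, from 2590.01 and 2119 expected counts. Defa3, at 21287409 to 21288377, was at 42.0 and 39.2 TPM, from 470.04 and 336 expected counts. The order Defa24, Defa17, Defa3 was the same in both pups, with gaps far wider than the differences between pups. Defa24 stood 2.41-fold above Defa17 (log2 1.27 ± 0.068, SD, n = 2) and 14.8-fold above Defa3 (log2 3.89 ± 0.069, SD, n = 2).

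The other 2 alpha-defensins followed had no read in either pup. Defa5, at 21297439 to 21298375, and Defa22, at 21162277 to 21163249, were listed at 0. A count of 0 allows up to 3 counts, which is 0.301 and 0.393 TPM for Defa5 and 0.261 and 0.340 TPM for Defa22 in pups 1 and 2, for counting error only. The deposited upper bounds were wider, at 0.474 and 0.524 TPM for Defa5 and 0.325 and 0.455 TPM for Defa22. Defa5 lies between Defa3 and Defa17 in the cluster. The plot of levels by gene shows these limits beside the measured values.

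**Figure D1:**
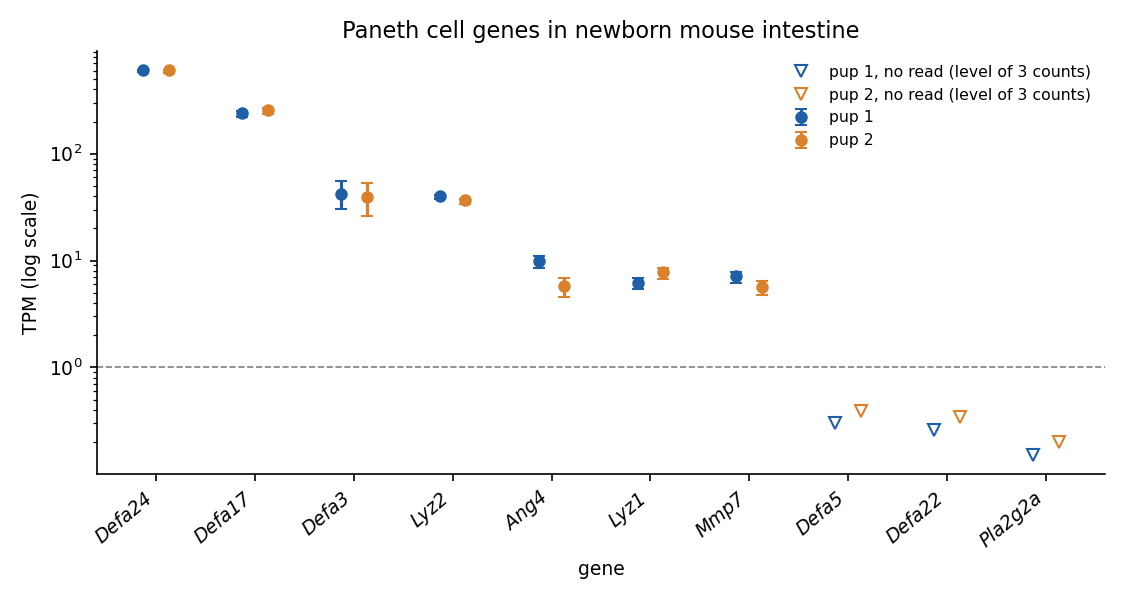
Level of each of the 10 genes in TPM (log axis) in pup 1 and pup 2, with the deposited lower and upper bounds as bars (their level is not stated); open triangles mark genes with no read, drawn at the level of 3 counts, and the dashed line is 1 TPM. Defa24 and Defa17 stand above 200 TPM in both pups, Defa3 and Lyz2 near 40 TPM, Ang4, Lyz1 and Mmp7 below 10 TPM, and Defa5, Defa22 and Pla2g2a have no read.

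A gene was counted as detected where each pup had at least 1 TPM. By this measure 7 of the 10 genes followed were detected, beside 59.1% of all 21474 protein-coding genes measured (12691 genes). The median level of all 10, with the genes without a read included, was 8.49 TPM in pup 1 and 6.75 TPM in pup 2. That of all protein-coding genes was 2.89 and 3.08 TPM. The range among the 7 detected genes ran from 6.38 ± 1.01 TPM for Mmp7 to 602 ± 0.714 TPM for Defa24 (mean ± SD, n = 2). In bulk tissue, more cells of a type and more RNA per cell cannot be told apart.

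The alpha-defensin family was then summed, since its total does not depend on how reads were divided within it. The family held 44 measured genes, 27 protein-coding and 17 pseudogenes, of which 39 carry a Defa symbol and 5 are predicted genes that RefSeq names as Defa genes. Its summed level was 896 TPM in pup 1 and 908 TPM in pup 2, from 10109 and 7845 counts, which is 0.0227% and 0.0225% of all gene counts. Defa24, Defa17 and Defa3 took 98.8% of the family's counts in pup 1 and 98.9% in pup 2. Defa24 alone took 68.6% and 67.6%, Defa17 25.6% and 27.0%, and Defa3 4.65% and 4.28%. Of the 44 genes, 28 had an expected count of 0 in both pups, among them 12 of the 27 protein-coding ones. Over all 21474 protein-coding genes measured, 17555 had a read in either pup. A count of 0 can also come from the split between copies. Defa23, at 0, had posterior mean counts of 0.47 and 2.6, near those of Defa31 at 0.53 and 2.4.

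The 3 leading copies are not neighbours. In order along the chromosome Defa3 is the 21st of the 44 genes, Defa17 the 38th and Defa24 the 43rd, with 368 kb between the starts of Defa3 and Defa17, 78.7 kb between those of Defa17 and Defa24, and 4 family genes between the latter pair. The protein-coding copies without a read include the ones followed here, Defa5 and Defa22, and lie among the copies with reads. Another 9 copies had 3 or more counts over both pups, and the highest level among them was 2.29 TPM. Defa37 had 25 and 12.9 counts (2.29 and 1.53 TPM), the predicted gene Gm7849 24.1 and 20.4 counts, Gm7861 20.9 and 22.7 counts, and Defa30 17.5 and 7.02 counts. Defa20 had 15.2 and 8 counts, Defa26 6 in each pup, Defa31 1 and 5, the pseudogene Defa-ps1 1 and 4, and Defa21 2 and 1. All copies other than the leading 3 together reached 10.1 TPM in pup 1 and 9.77 TPM in pup 2.

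**Figure D2:**
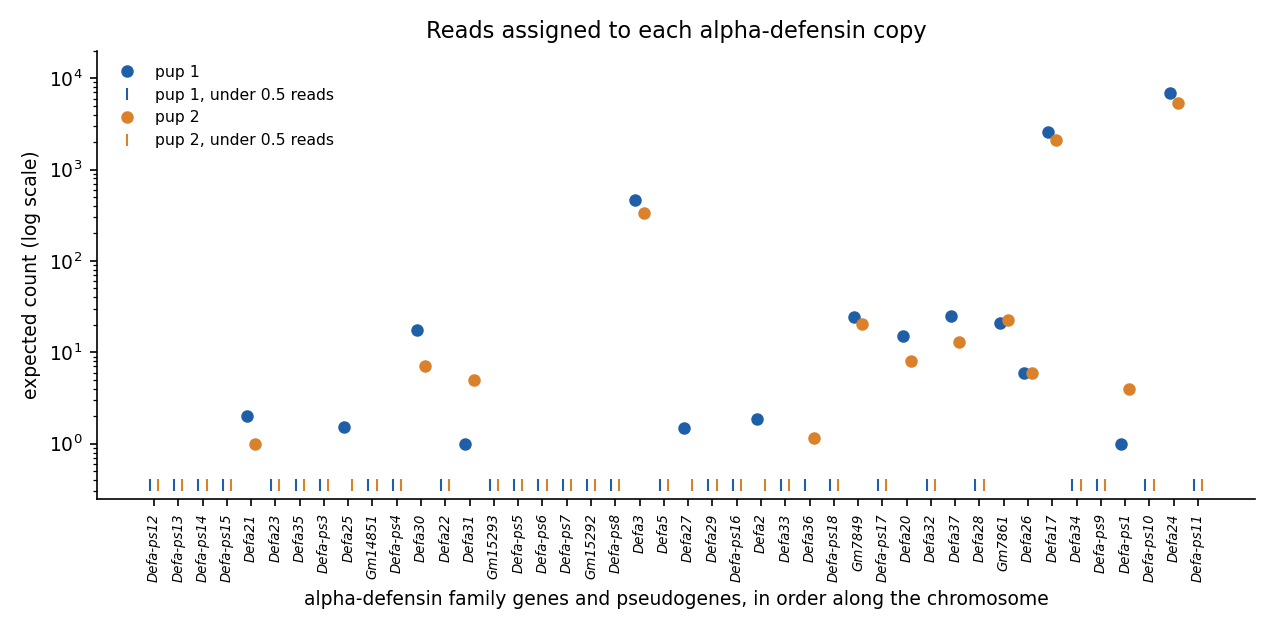
Expected counts (log axis) assigned to each of the 44 alpha-defensin genes and pseudogenes in the order of their positions along the chromosome, for pup 1 and pup 2; ticks at the bottom mark copies under 0.5 reads. Defa24, Defa17 and Defa3 each hold 336 or more reads in both pups, while no other copy exceeds 25.

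How firmly reads were given to 1 copy was read from 3 sources: the deposited posterior SD of the count, the deposited bounds of TPM, and the share of 100-base windows of each GENCODE M21 transcript found in no other gene's transcript. Windows of 100 bases were used because the deposited effective lengths are 99 bases shorter than the transcripts. For Defa24 all 320 of 320 windows were private, and the posterior SD was 0.76 reads in pup 1 and 0.47 reads in pup 2, or 0.011% and 0.0089% of the count. Its deposited bounds were 579 to 607 TPM and 574 to 605 TPM. The level of Defa24 was thus set almost wholly by reads that these estimates gave to no other copy. With windows of 50 bases, 71.9% of those of Defa24 were private.

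Defa17 and Defa3 stood at the other end. They shared 270 windows, which left 28 of 298 (9.40%) private to Defa17 and 41 of 311 (13.2%) private to Defa3. All windows within the shared coding sequence are the same, and outside it the transcripts differed at 1 aligned base after the stop codon and by 13 unaligned bases before the start codon. The posterior SD was 70.5 and 60.0 reads for either gene. That is 2.73% and 2.85% of the count of Defa17, and 14.7% and 17.3% of the count of Defa3. The deposited bounds were 221 to 252 and 234 to 269 TPM for Defa17, and 30.5 to 55.8 and 26.2 to 53.5 TPM for Defa3.

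The bounds of Defa17 and Defa3 did not meet in either pup, and those of Defa24 stayed above both. The sum of Defa17 and Defa3 does not depend on their split: it was 284 TPM in pup 1 and 297 TPM in pup 2, from 3060 and 2455 counts. Since both genes encode the same precursor, this sum is also the level of transcripts for that precursor. It took 30.3% and 31.3% of the family's counts.

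For the copies without reads the sharing matters too. Only 33 of 277 windows of Defa5 (11.9%) were private, and 5 copies shared windows with it, Defa34 the most (207). Those 5 copies together held 25 and 14 counts (2.29 and 1.76 TPM), so even if every one of these reads belonged to Defa5 it would stay under 3 TPM. Defa22 had 191 of 320 windows private (59.7%) and shared 129 with Defa21, which held 2 counts in pup 1 and 1 in pup 2. Across the family 6 genes had no private window and 8 had only private windows. Some of these M21 transcripts differ in length from the deposited ones. Defa2 (426 against 288 bases) and Defa33 (426 against 333) are among the 6, and Defa-ps12 (193 against 420) is among the 8. Among the minor copies the split ranged from loose to firm. The posterior SD was 53.2% and 65.5% of the count for Gm7849, whose 389 windows all lie in Gm7861 too. It was 94.3% and 70.0% for Defa31, whose 278 windows all lie in Defa23. For Defa30 it was 3.14% and 1.71%, with 99.7% of windows private, and for Defa26 it was 0 in both pups, with 98.9% private.

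**Figure D3:**
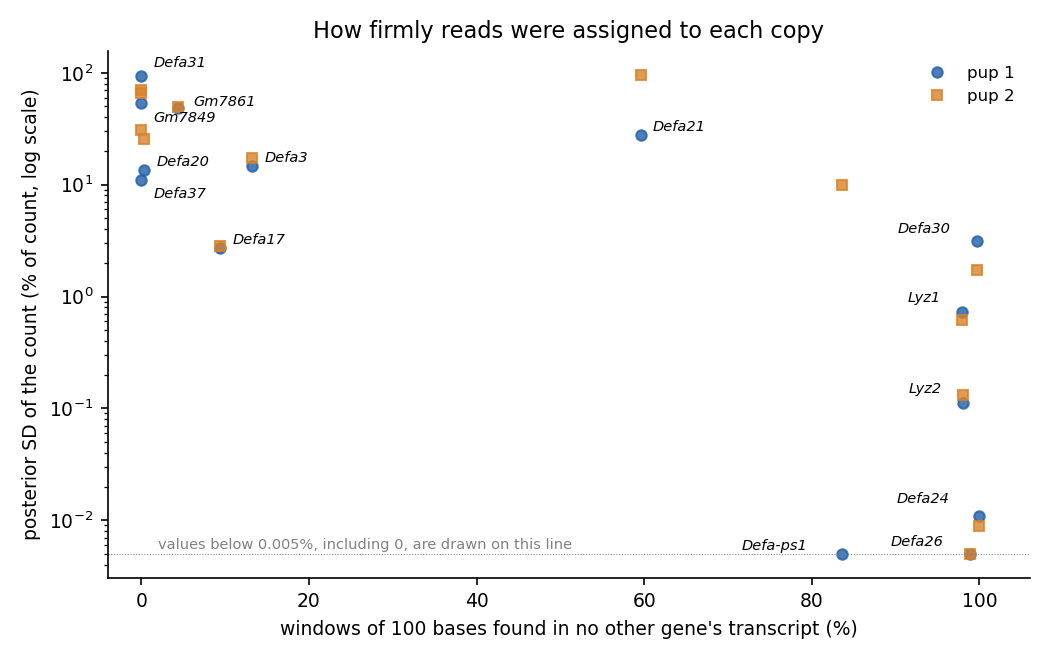
Posterior SD of the count as a percentage of the count (log axis) against the percentage of 100-base windows found in no other gene's transcript, for alpha-defensin copies with 3 or more counts and for Lyz1 and Lyz2, in pup 1 (circles) and pup 2 (squares); labels stand beside the pup 1 points. Defa24 lies at 100% private windows with an SD near 0.01%, while Defa17 and Defa3 lie below 15% private windows with SDs of 2.73% to 17.3%.

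Lysozyme, the enzyme that cuts bacterial cell walls, came from a pair of neighbouring genes on chromosome 10. Lyz1 (117287797 to 117292868, minus strand) and Lyz2 (117277331 to 117282321, minus strand) have coding sequences of 447 bases that differ at 22 bases (95.1% identity), in 18 codons, of which 12 change the residue. Coding bases 7 to 156, counted from 1 at the start codon, hold 15 of these differences and are shown 5′ to 3′ with the differing bases in capitals, as an example of what separates the copies. The transcripts differed at a further 29 aligned bases after the stop codon.

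Lyz1: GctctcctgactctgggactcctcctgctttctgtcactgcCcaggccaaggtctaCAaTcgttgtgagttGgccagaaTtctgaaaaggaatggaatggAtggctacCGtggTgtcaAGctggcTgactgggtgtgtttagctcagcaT
Lyz2: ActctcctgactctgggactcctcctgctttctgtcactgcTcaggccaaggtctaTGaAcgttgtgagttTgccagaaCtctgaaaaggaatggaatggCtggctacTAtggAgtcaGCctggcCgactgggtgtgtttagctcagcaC

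Lyz1 was at 6.16 TPM in pup 1 and 7.73 TPM in pup 2, from 258 and 248 counts. Lyz2 was at 40.1 and 36.7 TPM, from 1682 and 1179 counts. Lyz2 was the higher in both pups, by 5.49-fold (log2 2.46 ± 0.32, SD, n = 2). Their split was firm, with 97.9% of windows private to Lyz1, 98.0% private to Lyz2 and 24 shared, and a posterior SD of 1.87 and 1.54 reads for either gene. The deposited bounds were 5.36 to 6.85 and 6.65 to 8.54 TPM for Lyz1, and 37.6 to 41.3 and 33.9 to 38.0 TPM for Lyz2.

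The Paneth lysozyme thus stood well below the leading defensin. Defa24 exceeded Lyz1 by 86.0-fold in TPM (log2 6.43 ± 0.23, SD, n = 2), the fold being 96.2 in pup 1 and 76.8 in pup 2. Muc2, the main gel-forming mucin of goblet cells, exceeded Lyz1 by 19.6-fold and was itself below Defa24 by 4.38-fold in TPM (log2 2.13 ± 0.048, SD, n = 2). These ratios depend on the length scaling, since the Defa24 transcript is short. In CPM, counts scaled only by library size, Defa24 over Lyz1 was log2 4.56 and Defa24 over Muc2 was log2 -0.043. Defa24 and Muc2 were thus near level in counts, at 6931 and 7403 in pup 1 and 5302 and 5272 in pup 2. Their order turned in pup 1 only.

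Markers of macrophages, myeloid cells that express Lyz2, were present in both pups. Of 15 macrophage genes 14 were detected, and the list had a summed level of 494 TPM in pup 1 and 481 TPM in pup 2. The highest were Ctss (162 and 157 TPM), Csf1r (82.3 and 78.1 TPM), C1qb (57.3 and 54.3 TPM) and Tyrobp (51.0 and 47.9 TPM). Lyz2 stood at 0.479 times the level of Csf1r, the receptor of macrophage growth factor (log2 -1.06 ± 0.036, SD, n = 2), and at log2 -2.94 in CPM, without length scaling. Of 14 monocyte and granulocyte genes 8 were detected, which is no more than the 59.1% of all protein-coding genes. They were led by Plac8 (1226 and 1218 TPM), Mmp9 (7.76 and 7.93 TPM), Ltf and Lcn2. Plac8 stood far above every macrophage gene and is also known from intestinal epithelium, and Lcn2 belongs to the list of epithelial antimicrobial genes as well. The neutrophil elastase gene Elane had no read, and Chil3 and Mmp8 were under 0.1 TPM in both pups. The part of myeloid cells in the level of Lyz2 was not tested. Of the 7 other lysozyme family genes none was detected, and Lyg1, Lyzl1 and Lyzl6 had no read.

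Ang4, an angiogenin of the ribonuclease A family with antimicrobial activity, lies on chromosome 14 at 51763878 to 51773590 (minus strand). It was at 9.89 TPM in pup 1 and 5.77 TPM in pup 2, from 217 and 97 counts. Its bounds, 8.54 to 11.1 and 4.59 to 6.82 TPM, did not meet between the pups. All 610 of its windows were private and its posterior SD was 0, so no read was in dispute with another gene. Against Lyz1 its TPM was higher in pup 1 and lower in pup 2 (log2 0.13 ± 0.77, SD, n = 2), while its counts were lower in both pups (log2 -0.78 in CPM). Of the 13 angiogenin and ribonuclease A genes measured 6 were detected. Rnase4 (264 and 317 TPM) and Ang (82.9 and 86.3 TPM) stood far above Ang4, with the ribonuclease inhibitor Rnh1 at 113 and 107 TPM and Rnase1 at 17.6 and 18.7 TPM. Rnase4 and Ang are known to share a locus, and the posterior SD of the count was 3.32 reads in pup 1 and 2.80 reads in pup 2 for either gene. Ang2, Ang5 and Ang6 had no read.

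Mmp7, the protease that activates alpha-defensin precursors in the mouse, lies on chromosome 9 at 7692090 to 7699585 (plus strand). It was at 7.09 TPM in pup 1 and 5.66 TPM in pup 2, from 247 and 151 counts, with bounds of 6.13 to 7.87 and 4.73 to 6.50 TPM that overlapped. Its level was 0.919 times that of Lyz1 (log2 -0.12 ± 0.45, SD, n = 2), a difference smaller than the spread between pups. An antisense gene, AV064505, overlaps it and shares 25 of its 969 windows, and that gene had no read. Of 18 matrix metalloproteinases and their inhibitors 13 were detected, and the stromal Mmp14 (42.4 and 39.0 TPM) and Mmp2 (36.7 and 35.01 TPM), the inhibitor Timp2 (31.2 and 31.2 TPM) and Mmp23 (25.1 and 29.7 TPM) led the list. Mmp8 and Mmp3 were under 0.1 TPM in both.

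Trypsins activate alpha-defensins in human Paneth cells, and a list of 10 trypsin, inhibitor and MMP genes was examined beside Mmp7. All 10 were detected. The trypsin inhibitor Spink1 was at 3843 and 4118 TPM and Spink4, a goblet and Paneth secretory gene, at 490 and 336 TPM. The trypsin gene Try5 reached 18.7 and 30.3 TPM and the inhibitor Timp3 19.4 and 23.6 TPM. Trypsin genes are close copies of each other, so the values of single ones are uncertain. Acinar genes of the pancreas were present in both libraries, with 9 of 10 detected and summed levels of 243 and 337 TPM. Their part in the trypsin values was not tested.

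Pla2g2a, a secreted phospholipase that attacks bacterial membranes, lies on chromosome 4 at 138831857 to 138835186 (plus strand). It had no read in either pup, in any of its 4 transcripts, and all 685 windows of the 784-base transcript compared were private. For counting error only, 3 counts would be 0.152 TPM in pup 1 and 0.198 TPM in pup 2, while the deposited upper bounds were 0.434 and 0.563 TPM. The annotation calls the gene a polymorphic pseudogene, and C57BL/6 strains are known to carry a disrupted copy. Of 12 genes of the secreted phospholipase A2 list 4 were detected: Pla2g12b (87.1 and 84.3 TPM), Pla2g12a (23.4 and 22.7 TPM), Pla2g10 (8.48 and 7.27 TPM) and Pla2g2d (1.22 and 1.81 TPM). Pla2g5, which overlaps Pla2g2a on the opposite strand, had 12 and 13 counts.

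The littermates were then compared gene by gene. With 1 library per pup and 1 group there is no replicate test of this difference. The ratio of counts, scaled by library size, is given with an exact 95% interval that covers counting error only, and a gene was called over 2-fold apart if the whole interval lay above 2 or below 0.5. None of the 7 genes with reads was over 2-fold apart, beside 0.796% of all 19088 genes tested (152 genes). No p-value was computed for any of them.

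The leading defensins were close between the pups. The ratio of pup 2 to pup 1 was 0.954 (0.920 to 0.989) for Defa24, 1.02 (0.963 to 1.08) for Defa17 and 0.892 (0.773 to 1.03) for Defa3. For Defa17 and Defa3 summed it was 1.00 (0.949 to 1.06), and for the summed family 0.968 (0.940 to 0.997). The interval of Defa3 leaves out the uncertainty of its split from Defa17. For the enzymes the ratio was 1.20 (1.003 to 1.43) for Lyz1, 0.874 (0.811 to 0.942) for Lyz2 and 0.762 (0.619 to 0.937) for Mmp7.

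Ang4 differed most among the 7, at 1.79-fold higher in pup 1 (1.41 to 2.30). Some other secretory genes were higher in pup 1 as well. The 8 genes of the goblet, Paneth and deep crypt secretory list were together 1.30-fold higher there (1.26 to 1.33). Among them were Reg4 at 116 and 72.7 TPM (1.66-fold) and Mptx1 at 101 and 57.4 TPM (1.84-fold). The values do not show which cells expressed the 8. Without Reg4 and Mptx1 the other 6 were together 1.06-fold higher (1.03 to 1.10), a value chosen after seeing the data, with Cd24a at 1.10-fold and Cftr at 0.991-fold. Of 14 goblet genes 9 were higher in pup 1 with an interval that excludes 1, Spink4 among them (1.53-fold). Another 3 were lower in pup 1, Fcgbp among them (0.918-fold), and for 2 the interval spanned 1. Of all genes tested, 29.6% had an interval that excludes 1. Such intervals cover counting error only and are narrow at high counts, where small differences exclude 1.

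The libraries also differed in position markers. The 16 HOX genes of groups 9 to 13, which mark posterior gut, summed to 970 counts in pup 1 and 110 in pup 2, which is 7.07-fold higher in pup 1 (5.80 to 8.69). The 23 HOX genes of groups 1 to 8 had a ratio of 1.02 (0.977 to 1.07), pup 2 over pup 1. The part of the posterior difference in the values of Ang4, Reg4 and Mptx1 was not tested.

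**Figure D4:**
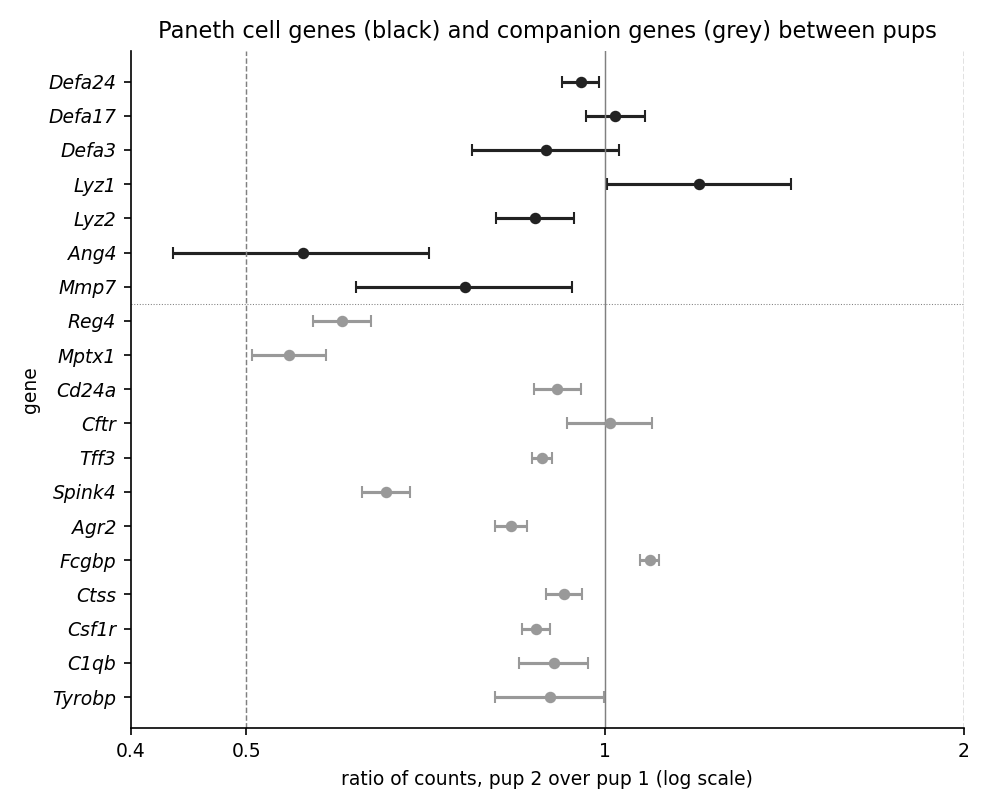
Ratio of library-scaled counts, pup 2 over pup 1 (log axis), with exact 95% intervals for counting error only, for the 7 genes with reads (black) and the 4 highest genes each of the deep crypt secretory, goblet and macrophage lists (grey); lines mark ratios of 0.5, 1 and 2. Defa24, Defa17 and Defa3 lie near 1, while Ang4 at 0.558 sits with Reg4 and Mptx1, which are also higher in pup 1.

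Genes listed as Paneth lineage and maturation regulators were set beside the products of Paneth cells. Of these 13 genes 10 were detected. Atg16l1 and Nod2 also count in the granule and secretion list below, Dll1 in the niche ligand list and Sox9 in the crypt base list. Spdef, Creb3l1 and Atoh1 count in the goblet list as well, so these lists are not independent. Xbp1, a factor for secretory capacity, was at 120.2 and 113 TPM, the Wnt effector Tcf7l2 at 25.8 and 29.5 TPM, the Notch ligand Dll1 at 14.7 and 15.9 TPM and Sox9, which Paneth cells need to form, at 12.8 and 13.3 TPM. Chosen after their values were seen, Gfi1 (0.30 TPM in each pup), Nod2 (0.18 and 0.17 TPM) and Bhlha15 (0.12 and 0.11 TPM) were the 3 listed genes below 1 TPM. Several of these regulators are also expressed in goblet, stem or other epithelial cells.

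Of 8 granule and secretion genes 7 were detected, of which 4 reached 2 TPM in each pup, and the list median was 2.36 TPM in pup 1 and 2.19 TPM in pup 2. Atg16l1, of the autophagy pathway that Paneth granules depend on, was at 10.3 and 12 TPM, Rab27a at 4.56 and 4.65 TPM, the channel Kcnn4 at 2.34 and 2.51 TPM and the lectin Itln1 at 2.43 and 1.99 TPM. These levels are far under that of Defa24. Of 7 genes listed as niche ligands for stem cells 4 were detected: Dll1, Tgfa (8.70 and 8.92 TPM), Rspo1 (4.57 and 4.39 TPM) and Dll4 (2.95 and 3.33 TPM). The values do not show whether Paneth cells or other cells expressed them. The ligands Wnt3 (0.41 and 0.44 TPM) and Egf (0.32 and 0.30 TPM), again chosen after their values were seen, were below 1 TPM.

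Genes of the crypt base and of stem cells were all detected, 12 of 12, beside 59.1% of all protein-coding genes. The samples say nothing of where in the tissue these 12 genes were expressed. Lgr5 was the lowest of them, at 2.01 TPM in pup 1 and 1.83 TPM in pup 2. Smoc2 was at 48.5 and 49.7 TPM, Cdca7 at 26.1 and 26.8 TPM, Olfm4 at 20.0 and 22.3 TPM and Slc12a2 at 14.9 and 14.3 TPM. All 14 goblet genes were detected, at a median of 68.6 TPM in pup 1 and 78.4 TPM in pup 2, and the trefoil peptide Tff3 led them at 1771 and 1640 TPM, ahead of Spink4, Agr2 (403 and 352 TPM) and Fcgbp (356 and 395 TPM). All 8 epithelial genes were present too, with Lgals4, Cldn7, Epcam and Krt8 above 800 TPM in both pups, so both libraries held epithelial transcripts. The libraries are of whole tissue, so the values do not show which cells held the transcripts of Defa24, Lyz1, Ang4 or Mmp7.

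**Figure D5:**
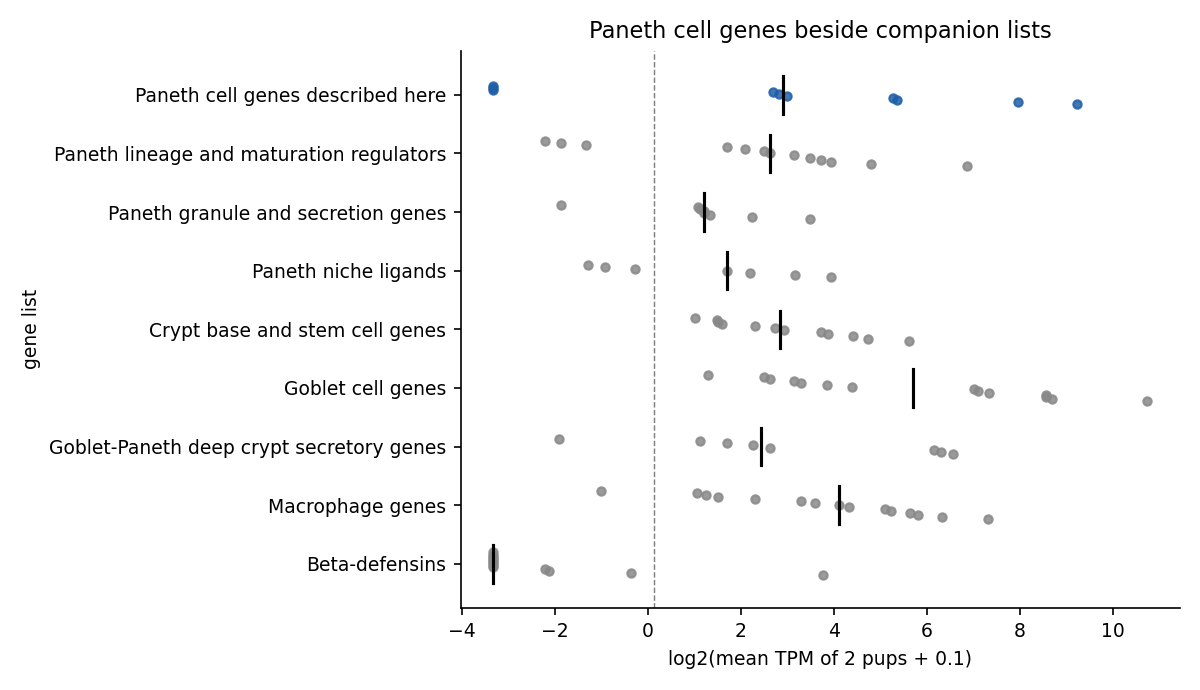
Mean level of each gene over the 2 pups as log2(TPM + 0.1), by list, with the median of each list as a black bar and a dashed line at 1 TPM. The genes described here (blue) run from no read to the level of Defa24 and span a wider range than the regulator, granule or niche ligand lists.

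Across the whole tables the expected counts over genes came to 44568098 for pup 1 and 34797495 for pup 2. Reads were assigned to 23144 and 23001 genes. A count of 0 then allows up to 0.0673 and 0.0862 CPM. By the labels the libraries are biological replicates, each of a separate pup, and 2 of them limit what any spread given here can show.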

How the data were processed

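Total RNA libraries of 2 newborn pups were analysed from 1 gene and 1 transcript table each. Per the file headers, the authors' tables give expected counts (estimated reads, with shared reads divided between features), posterior mean counts, and TPM and FPKM values scaled by the authors to effective length. The deposited bounds of TPM, whose level is not stated, and the deposited posterior SD of the count were handled as signal values, and the deposited transcript tables also hold percent values, the part of a gene's level that each transcript takes. Reads were placed on mm10 with GENCODE M4, as a deposited text states. Neither aligner, quantifier nor strand setting is named there or in the labels, so overlapping genes on opposite strands may share reads.

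Symbols and positions came from GENCODE M21 (GRCm38), matched by gene identifier for 42462 of 43346 genes, and 5 predicted genes joined the alpha-defensin family through RefSeq. Transcript sequences came from GENCODE M21. Their length equals the deposited one for the alpha-defensins followed, but not for every other copy of the family. That of Lyz1 is 1263 against 1264 bases and that of Lyz2 1316 against 1266. Windows were compared with annotated transcripts only, not with the genome. Expected counts were rounded for ratios and scaled with TMM of edgeR 4.0.16 (R 4.3.3). Ratios at a summed count of 10 or more were given exact Clopper-Pearson intervals (SciPy 1.17.1). The 2-fold rule was tested on simulated counts with counting error only, without variation between animals or uncertainty of shared reads. Pairs are log2 ratios of TPM + 0.1. The 10 genes, 17 other lists (212 entries in all with the 10, 1 not measured) and 9 pairs were chosen with earlier results of these data known. Named were the 10 genes, family genes with 3 or more counts, genes of the pairs, and of each list the 4 highest and at most 4 members that each pup had below 0.1 TPM. Alternatives changed the scaling, the estimate of reads, the library size, the pseudocount, the thresholds and the window length, and left out each pup. With 2 libraries in 1 group, no test between conditions exists.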

Additional observations from a re-analysis of the deposited data

How the results depend on the processing

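The summed alpha-defensin level, 902 TPM as a mean of both pups, was 721 in FPKM, 992 TPM after rescaling without spike-ins, tRNA features and mitochondrial genes, and 894 TPM with posterior means. The share of Defa24 was 68.1% of family counts and 66.7% of family TPM. All 28 alternative ratios between pups, with DESeq2 size factors, total counts, totals without mitochondrial genes or posterior mean counts, kept their direction and their side of the 2-fold rule. The number of genes over 2-fold apart was 152 at a summed count of 10 and 64 at 50. Defa24 over Muc2 went from log2 2.13 in TPM to -0.043 in CPM, which ignores length. In counts Defa24 was below Muc2 in pup 1 only. In CPM the log2 ratios were 4.56 for Defa24 over Lyz1 (6.43 in TPM), -2.94 for Lyz2 over Csf1r (-1.06) and -0.78 for Ang4 over Lyz1 (0.13). Of the granule genes 7 were detected at 1 TPM and 4 at 2 TPM, and of the beta-defensins 1 at 1 TPM and 2 at 0.5 TPM. Posterior mean TPM gave the genes without a read, Defa5, Defa22 and Pla2g2a, 0.17, 0.135 and 0.245 TPM, although no read was assigned to Pla2g2a. Shorter windows lowered the private share of Defa24 to 93.3% at 75 bases and 71.9% at 50, and at 50 bases that of Defa5 from 11.9% to 0.306% and that of Defa22 from 59.7% to 25.1%. For genes without a read the level of 3 counts covers counting error only, and the intervals between littermates do too.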

Other observations

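Outside the genes described above, other antimicrobial genes of the epithelium ranged widely. Of 18 such genes 12 reached 1 TPM in each pup. Lypd8, which keeps flagellated bacteria off the colonic epithelium, was at 1378 TPM in pup 1 and 1167 TPM in pup 2, above Defa24 in both. Sprr2a2, of the small proline-rich family, was at 768 and 650 TPM, the goblet lectin Zg16 at 183 and 141 TPM and the protease inhibitor Slpi at 67.1 and 77.3 TPM. Reg3a and Reg3d were under 0.1 TPM in both pups. Near-identical copies of the Sprr2a genes make the value of a single copy uncertain.

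Beta-defensins, the epithelial family next to the alpha-defensins, gave 1 gene out of 12 that reached 1 TPM in each pup. Defb37 was at 15.8 TPM in pup 1 and 11.2 TPM in pup 2, from 144 and 78 counts, and stood above Lyz1, Ang4 and Mmp7 in TPM in both pups, while its counts, which are not scaled by length, were below those of all 3. Defb2, Defb3, Defb4 and Defb14 were among the 8 without a read. In counts scaled by library size Defb37 was 1.48-fold higher in pup 1 (1.12 to 1.98, counting error only).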
